A study of Mus musculus with 12 samples.

Results

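The genes of the cytosolic ribosomal proteins were followed through 12 RNA-seq libraries of the mouse cochlea. Members were the genes whose name has the form Rpl or Rps with a number and at most 1 of the letters a, x or l, together with Rplp0, Rplp1, Rplp2 and Rpsa, and that reached an FPKM (fragments scaled for transcript length and sequencing depth) of at least 1 in 2 or more libraries. The table lists 37432 genes, of which 83 carried such a name, and 79 of these passed, 47 of the large and 32 of the small subunit. The other 4, Rpl3l, Rpl10l, Rpl32l and Rpl39l, had means from 0.00983 to 0.58 FPKM after scaling, and Rpl32l, the highest of them, reached 1.24 in 1 library. The annotation lists 77 of the 79 as protein coding and 2, Rps4l and Rpl6l, as pseudogenes, so the name covers slightly more than the family of proteins.

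The libraries came from 3 pieces of the cochlea, its apical, middle and basal turn, at P14, the age at which mouse hearing begins, from wild-type mice and from mice homozygous for the 35delG deletion of Gjb2 (Gjb2 35delG/35delG, whose genotype tag in the labels is KO), with 2 repeats in each of the 6 groups. Gjb2 encodes connexin 26, a gap junction protein of the non-sensory cells of the cochlea. The homozygous males derived wholly from embryonic stem cells put into tetraploid embryos, were born by cesarean section to be nursed by ICR females and had an almost pure C57BL/6J background. The wild-type males were bought at the same age, so genotype and origin cannot be told apart. The number of mice behind each library is not given in the sources used here, and p-values measure only the spread between these libraries, which the study describes as biological repeats.

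A cytosolic ribosome carries one copy of nearly every one of these proteins, and cells make them in matched amounts. Their mRNAs are among the most abundant of any cell and are most plentiful in cells that grow, divide or secrete much protein. They typically begin with a cytosine followed by a run of pyrimidines, the 5′ terminal oligopyrimidine tract, through which mTORC1 controls their translation. Several ribosomal protein genes also carry small nucleolar RNAs, guides for the modification of ribosomal RNA, in their introns.

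RefSeq start sites on GRCm38.p6 were at hand for 57 of the 79 members. An unbroken run of at least 8 bases that were each C or T, on the strand of the gene and within 25 bases before to 25 after the start, stood at 31 of them, or 54.4%. The same letters stood at 22.3% of 27025 genes with a start. A run of at least 8 bases that were each A or G was counted on the same strand and in the same window. It stood at 8.77% of the members with a start and at 24.4% of all genes with one. The windows below, 15 bases before to 15 after the start, are of some of the members named further on, with the longest run of C and T in capitals.
Rpl31, chr1:39367836-39367865, plus strand: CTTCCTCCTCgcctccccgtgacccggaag
Rplp2, chr7:141447636-141447665, plus strand: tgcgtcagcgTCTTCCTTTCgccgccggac
Rps6, chr4:86857353-86857382, minus strand: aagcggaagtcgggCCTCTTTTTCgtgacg
Rps10, chr17:27635230-27635259, minus strand: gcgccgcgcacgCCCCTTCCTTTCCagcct
Rps15a, chr7:118116133-118116162, minus strand: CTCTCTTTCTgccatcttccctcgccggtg
Rpl22, first start, chr4:152324421-152324450, plus strand: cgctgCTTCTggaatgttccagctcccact
Rpl22, other start, chr4:152325711-152325740, plus strand: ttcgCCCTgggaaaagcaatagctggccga
Within these windows the run was 10 bases long in Rpl31, Rplp2, Rps6 and Rps15a and 13 in Rps10, while the windows of Rpl22 held runs of 5 and 4. In Rpl31 and Rps15a the run lay wholly before the RefSeq start used here. In the GENCODE M21 annotation the gene begins at 39367842 for Rpl31, within the run, and at 118116188 for Rps15a, upstream of it. In both genes the run reached the edge of the window, which may cut it short.

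The FPKM of a library summed to between 316425 and 408162, which is not a depth. The smallest value above 0 was 1e-06 in every library, so no step of a whole read could be found, the depth is unknown, and the spread between repeats was the only measure of precision. Mitochondrial transcripts took between 7.32% and 20.6% of the summed FPKM. Gjb2 itself differed between homozygous and wild-type by a log2 value of 0.49 in the apical turn (adjusted p = 0.658) and 0.81 in the middle turn (adjusted p = 0.319), and was lower by -1.94 in the basal turn (adjusted p = 0.0238).

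Ribosomal protein transcripts took 3.43% to 6.75% of a library's summed FPKM. Among wild-type mice the share was 4.73% ± 0.313 (SD, n = 2) for the apical turn, 5.28% ± 0.145 for the middle and 6.11% ± 0.751 for the basal turn. Among homozygous mice it was 5.15% ± 0.21, 5.95% ± 1.12 and 4.26% ± 1.17 in the same order. The spread between repeats was thus wider in the homozygous middle turn and in the basal turn of both genotypes than in the wild-type apical and middle turns.

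Levels are given from here on as FPKM divided by a scaling factor of each library, called scaled FPKM. The median of the 79 members was 192 and 183 in the 2 wild-type apical libraries and 195 and 240.3 in the homozygous ones. Middle turn libraries had 250.1 and 261 (wild-type) against 297 and 217 (homozygous). Basal turn libraries had 240.3 and 326 (wild-type) against 135 and 232 (homozygous). The highest and the lowest median differed 2.40-fold, and both belonged to the basal turn. The second wild-type basal library was the highest of the 12 for 58 of the 79 members and the first homozygous middle library for 15, while the first homozygous basal library was the lowest for 75. Both subunits moved alike, since the mean of the small subunit genes divided by that of the large subunit genes stayed between 0.993 and 1.08 in all 12 libraries.

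**Figure D1:**
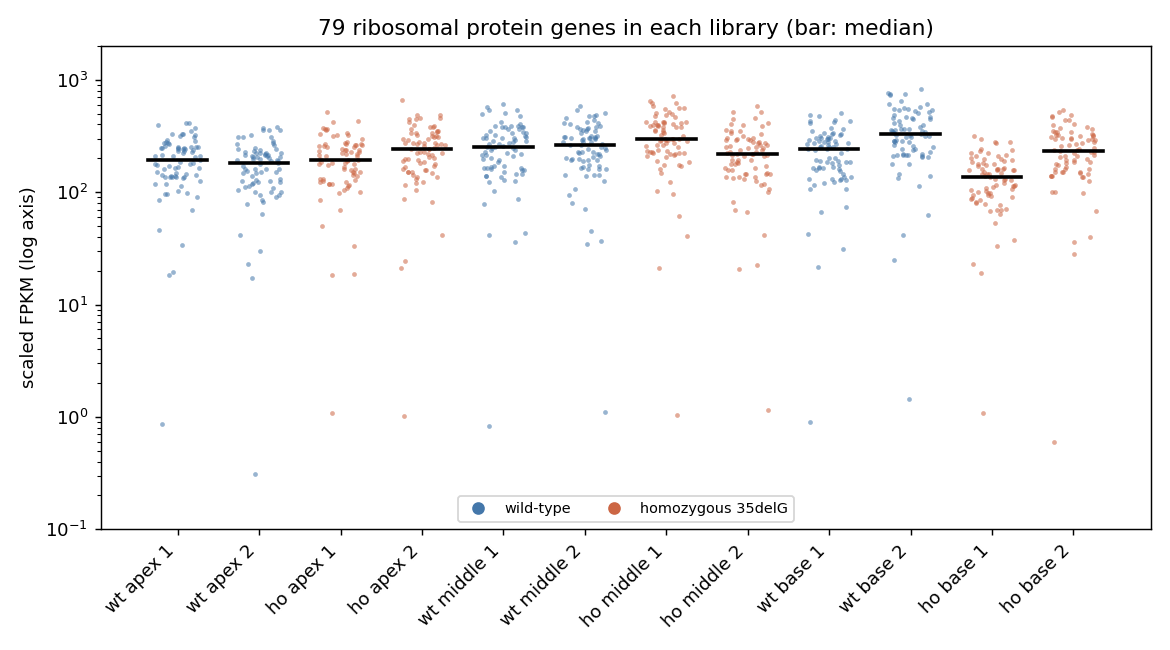
Scaled FPKM (log axis) of the 79 ribosomal protein genes in each of the 12 libraries, with blue points for wild-type, orange points for homozygous 35delG libraries and a black bar at the median. The first homozygous basal library has the lowest median (135) and the second wild-type basal library the highest (326), and the lone points near 1 are Rpl6l.

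Within a library, the members ranged over more than 2 orders of magnitude per length of transcript, but only through the pseudogene Rpl6l. The highest means over the 12 libraries were those of Rplp1 (519), an acidic protein of the ribosomal stalk, Rps24 (516) and Rpl13a (475). The lowest were Rpl6l (0.954), Rps4l (26.9) and Rps15a (27.3). Rpl6l is a processed pseudogene with 98.7% identity to Rpl6 over 871 aligned bases, and its level was 0.183% to 0.751% of that of Rpl6. Rps15a, a small subunit protein, has the longest transcript model used here, 5179 bases against a median of 878 among protein-coding members. FPKM divide by length, and the part of length in its low level was not tested. Across the protein-coding members, level and length had a Spearman correlation of -0.33, a description over genes that share the same libraries.

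Nearly all members followed one profile across the libraries. The Pearson correlation of a member's log2 level with the median of the other members, over the 12 libraries, had a median of 0.952, and it exceeded 0.8 for 73 of the 79 and 0.9 for 67. The SD of log2 levels over the libraries had a median of 0.374 among members, against 0.347 among all genes tested, and of 0.124 once the family's median in each library was subtracted. Rps4x, the X-linked protein of the small subunit, was close to the family profile with a correlation of 0.984. The lowest correlations were those of Rps4l (0.03), Rpl6l (0.33), Rpl22 (0.35), Rps10 (0.58) and Rplp2 (0.72). These values describe 12 libraries of 6 groups and share each library's scaling.

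Outside the family and the lists described further on, the genes closest to the members' median were Ssr4 (Pearson r = 0.969 over the 12 libraries), a subunit of the complex beside the channel through which proteins enter the endoplasmic reticulum, Prdx4 (0.955), a peroxidase of the endoplasmic reticulum, Commd8 (0.948), 2310010J17Rik (0.935) and Nme2 (0.935), a nucleoside diphosphate kinase. Ssr4 ranged from 33.4 to 80.0 and Prdx4 from 10.9 to 35.0 in scaled FPKM.

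In wild-type mice, the first question was whether the turns of the cochlea differ. All 79 members had a higher mean in the basal than in the apical turn, with a median log2 difference of 0.60 against -0.03 for all 16215 genes tested, and both basal libraries lay above both apical ones for 74 of the 79, where 25.2% of all genes did so. None was called at an adjusted p under 0.05 by limma, against 1.06% of all genes, and 8 had an unadjusted p under 0.05, against 20.3%. The median standard error of a difference was 0.33 among members and 0.25 among all genes. Without the second wild-type basal library the median difference was 0.32.

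The middle turn gave a similar picture. 77 of 79 members were higher on average in the wild-type middle than in the apical turn, with a median of 0.48 against -0.01 for all genes, and both middle libraries lay above both apical ones for 74, against 30.8% of all genes. None was called (0.487% of all genes) and 2 had an unadjusted p under 0.05 (19.9%). Both comparisons share the apical libraries. Under quantile normalization, which makes every library's distribution equal, the medians were 0.24 for basal against apical and 0.07 for middle against apical.

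Basal and middle turns lay close together. Their median difference was 0.12 against 0.03 for all genes, none was called (0.00617% of all genes) and 1 had an unadjusted p under 0.05 (15.2%). The order of levels in wild-type was therefore apical below middle and basal on the average of the family, with no single gene past the test and the last pair not separated by its spread.

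In the apical turn, homozygous libraries were on average higher for 74 of the 79 members, by a median log2 value of 0.24, where the median of all genes was -0.03. For 42 members the lower homozygous library exceeded the higher wild-type one, against 26.9% of all genes. No member was called by limma, against 0.931% of all genes, and none had an unadjusted p under 0.05, against 16.4%. The median was 0.10 without the second homozygous apical library, 0.15 without the second wild-type one and 0.39 without the first homozygous one, and 0.04 under quantile normalization.

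In the middle turn the family showed no common direction. Of the 79 members 40 were higher and 39 lower on average in homozygous mice, with a median of 0.01. For 8 members, among them Rplp1, Rplp2 and Rps10, both homozygous libraries were above both wild-type ones, against 31.3% of all genes. One gene, Rps4l, was called, against 3.99% of all genes, and it fell. The 2 homozygous middle libraries differed from each other, 297 against 217 in the members' median, and the median log2 difference was -0.21 without the first and 0.27 without the second.

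The basal turn had the largest difference of the family between the genotypes. Of the 79 members 78 were lower on average in homozygous mice, by a median log2 value of -0.62, a fold of 0.649, where the median of all genes was -0.02. Both homozygous libraries lay below both wild-type ones for 26 members, against 27.8% of all genes. Only Rpl31, a large subunit protein at the exit of the peptide tunnel, was called by limma and fell, against 18.1% of all genes called, while 18 members had an unadjusted p under 0.05, against 32.4% of all genes. All 18 of them were lower in homozygous mice.

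The size of this difference rested on single libraries. Without the first homozygous basal library the median was -0.22, without the second homozygous one it was -0.99, and without the second wild-type one it was -0.32. Without the second homozygous library 7 members were called, and without the first, none.

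**Figure D2:**
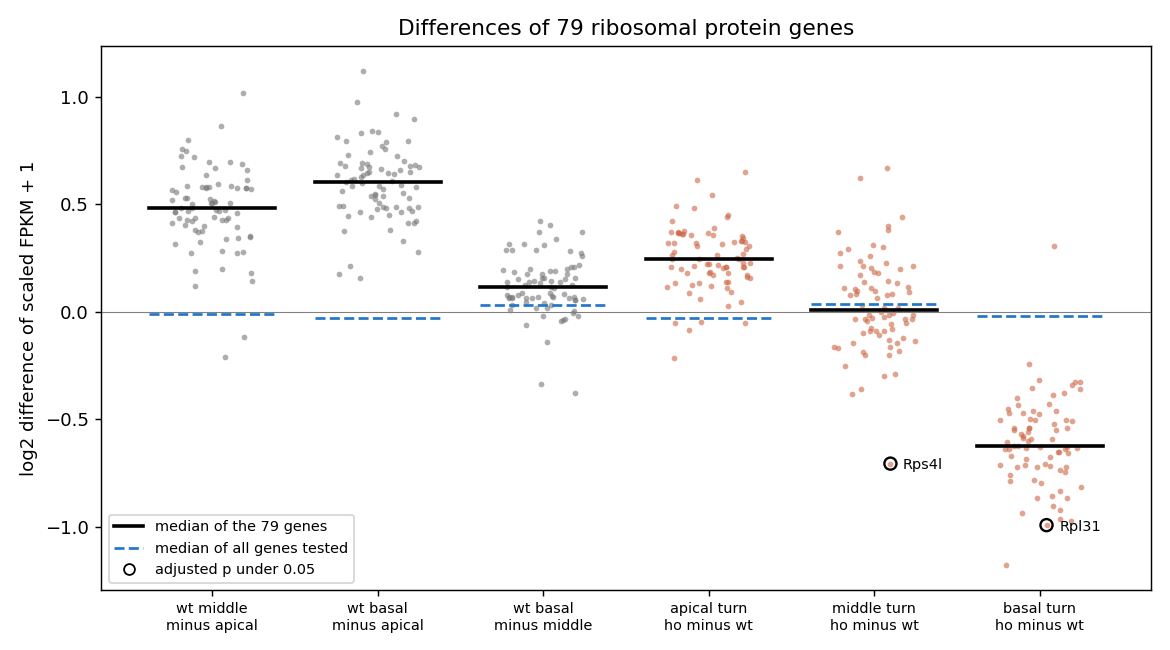
Log2 difference of scaled FPKM + 1 of each of the 79 ribosomal protein genes (points) between turns of wild-type mice (grey) and between homozygous (ho) and wild-type (wt) mice in each turn (orange), with the members' median as a black bar, the median of all 16215 genes tested as a dashed blue line and circles around called members. The members lie above 0 in the wild-type middle and basal turns against the apical turn and below 0 for the genotypes in the basal turn, where the median is -0.62 and the lone point above 0 is Rps4l.

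Averaged over the 3 turns, homozygous and wild-type libraries differed by a median log2 value of -0.11 among members and 0.00 among all genes. No member was called (2.36% of all genes) and 1 had an unadjusted p under 0.05 (18.6%). The genotype difference in the basal turn minus that in the apical turn was below 0 for 78 of 79 members, with a median of -0.86 against -0.01 for all genes. None of them was called (12.5% of all genes) and 14 had an unadjusted p under 0.05 (28.4%). The genotype difference in the basal turn minus that in the middle turn had a median of -0.67 against -0.12 for all genes, and 2 members, Rps4l and Rplp2, were called, against 22.9% of all genes. These contrasts share the basal libraries. In each of the 9 contrasts the share of members called was below that of all genes.

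Rpl31 had scaled FPKM of 240.4 and 323 in the wild-type basal libraries against 108 and 181 in the homozygous ones, which did not overlap. The log2 difference was -0.99 ± 0.28 (standard error; adjusted p = 0.0420). Its wild-type and homozygous values were 173 and 178 against 195 and 202 in the apical turn. They were 253 and 198 against 271 and 217 in the middle turn. The genotypes overlapped in the middle turn, and in the apical turn the homozygous libraries were the higher ones by a small margin. The basal call held in 6 of 23 alternative settings, with adjusted p between 0.0178 and 0.285. Rps18, a protein of the head of the small subunit chosen after its values were seen, had the lowest basal difference, -1.18 ± 0.41, and was not called (adjusted p = 0.0813), with 298 and 464 in wild-type against 116 and 232 in homozygous libraries.

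The stalk proteins Rplp0, Rplp1 and Rplp2 form the arm of the large subunit that recruits elongation factors. Rplp2 measured 101 and 79.8 in wild-type against 149 and 130 in homozygous middle libraries. Its basal values were 106 and 134 in wild-type against 69.5 and 101 in homozygous libraries. The genotypes did not overlap in either turn, and the homozygous mice were on the higher side in the middle and on the lower side in the basal turn. Neither difference was called by itself (0.62 ± 0.23, adjusted p = 0.138, and -0.50 ± 0.23, adjusted p = 0.172), while the change of the difference between the turns was called at -1.12 ± 0.33 (adjusted p = 0.0384). That call held in 7 of 23 alternative settings, with adjusted p between 0.00994 and 0.162.

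Rplp1, the partner of Rplp2, had 505 and 473 in wild-type against 720 and 579 in homozygous middle libraries. Its basal values were 419 and 743 against 315 and 521. Its change between the turns was -0.86 ± 0.51 (adjusted p = 0.249). Rplp0, the scaffold of the stalk, had 287 and 307 against 419 and 276 in the middle and 293 and 367 against 178 and 302 in the basal turn, where the difference was -0.50 ± 0.31 (adjusted p = 0.313). For Rplp0 the genotypes overlapped in both of these turns.

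Rps6, the small subunit protein phosphorylated downstream of mTORC1, had 246 and 202 in wild-type against 209 and 221 in homozygous apical libraries. It had 281 and 308 against 291 and 226 in the middle, and 251 and 334 against 152 and 229 in the basal turn. Wild-type and homozygous libraries were apart in the basal turn alone, by -0.63 ± 0.27 (adjusted p = 0.138). Rpsa, which also serves as the laminin receptor, had 136 and 212 in wild-type against 94.5 and 161 in homozygous basal libraries, which overlapped, with a difference of -0.46 ± 0.37 (adjusted p = 0.433). The most abundant members behaved alike. Rps24 had 482 and 822 against 296 and 539 in the basal turn (-0.66 ± 0.36, adjusted p = 0.254), and Rpl13a had 437 and 750.2 against 280 and 481 (-0.64 ± 0.36, adjusted p = 0.264).

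Rps4l was the member furthest from the family profile. It is an intronless copy of Rps4x on chromosome 6 (chr6:148354656-148355598, plus strand, GRCm38), annotated as a transcribed processed pseudogene, with 77.0% identity to the Rps4x transcript over 924 aligned positions. Of its windows of 100 bases 1.66% occur in the transcript of another gene, all in Rps4l-ps, so its reads can be told from those of Rps4x. The stretch of 30 bases in which the copies differ most is shown with the 15 bases that differ in capitals, from GRCm38.
Rps4l, chr6:148355195-148355224, plus strand: CTCGCtAgaCaGCggAaaaatCacCgaTGC
Rps4x, chrX:102186413-102186442, minus strand: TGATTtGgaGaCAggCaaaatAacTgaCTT
Rps4l had scaled FPKM of 18.2 and 22.9 in wild-type against 18.7 and 20.9 in homozygous apical libraries. Its middle turn values were 35.96 and 36.7 in wild-type against 21.3 and 22.5 in homozygous libraries. Its basal turn values were 30.9 and 24.9 in wild-type against 33.2 and 36.1 in homozygous libraries. Repeats lay close together, the genotypes did not overlap in the middle and basal turns, and the homozygous mice were lower in the middle and higher in the basal turn, the opposite of Rplp2.

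Rps4l fell in the homozygous middle turn by 0.71 on the log2 scale (standard error 0.16, adjusted p = 0.0489), a call that held in 3 of 22 alternative settings with adjusted p between 0.0282 and 0.164. In the basal turn its difference was 0.31 ± 0.16 (adjusted p = 0.227), the sole basal difference above 0 among the 79 members. The change of the difference between these turns was 1.01 ± 0.23 (adjusted p = 0.0149), and it held in 20 of 22 settings. The exceptions were the study's thresholds (adjusted p under 0.01 and fold over 2) and the setting without both the first homozygous middle and the second wild-type basal library, with 0.82 (adjusted p = 0.0688).

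Rps4x did not share this pattern. It had 386 and 413 in wild-type against 474 and 339 in homozygous middle libraries and 374 and 542 against 196 and 341 in the basal turn. Its basal difference was -0.80 ± 0.33 (adjusted p = 0.128). Rps4l amounted to 8.28% and 4.59% of Rps4x in wild-type against 16.9% and 10.6% in homozygous basal libraries, and to 9.33% and 8.89% against 4.49% and 6.63% in the middle turn. The ratio was highest in the library in which Rps4x was lowest.

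**Figure D3:**
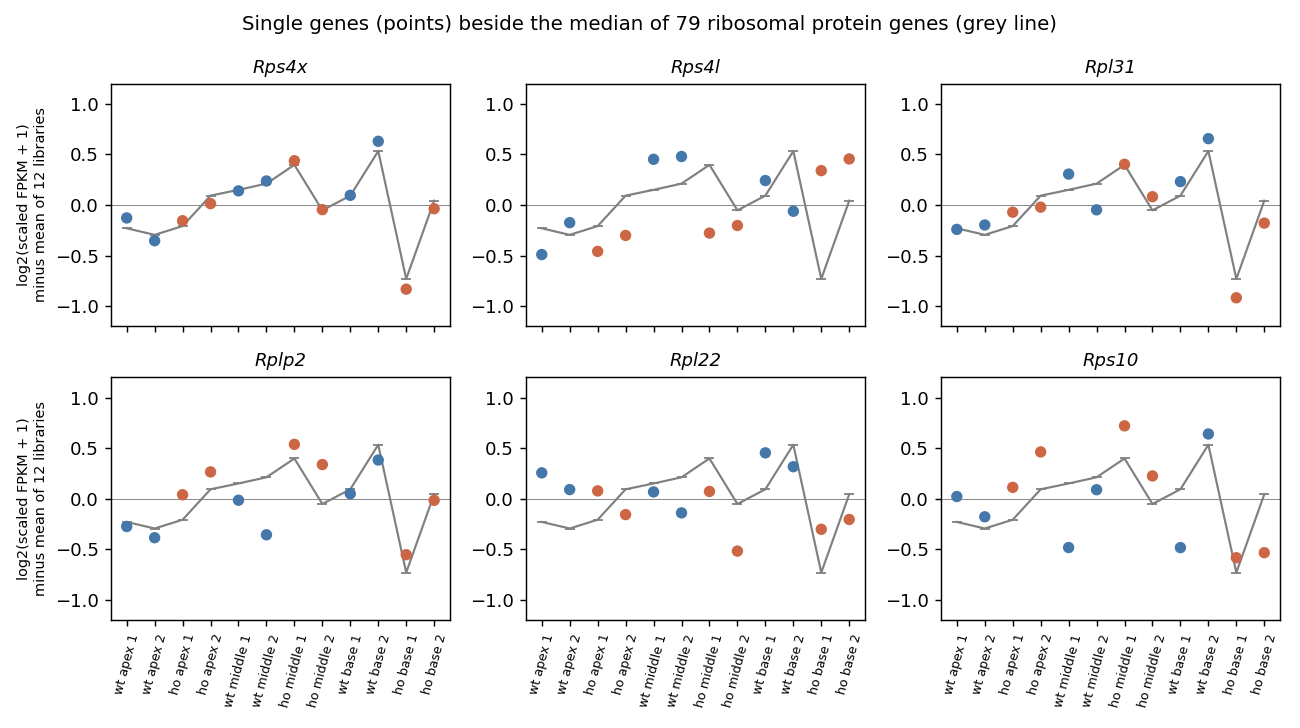
Log2(scaled FPKM + 1) of 6 ribosomal protein genes minus each gene's mean over the 12 libraries (blue for wild-type, orange for homozygous libraries), with the median of the 79 genes drawn the same way as a grey line. Rps4x follows the grey line, while Rps4l is low in the homozygous middle (21.3 and 22.5 scaled FPKM) and high in the homozygous basal libraries (33.2 and 36.1).

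Rpl22 and Rps10 also stood apart and were chosen after their values were seen. Rpl22, a large subunit protein that can bind RNA outside the ribosome and represses its paralog Rpl22l1, had 160.2 and 146 in wild-type against 94.5 and 101 in homozygous basal libraries (-0.64 ± 0.22, adjusted p = 0.0747). It had 140 and 124 in wild-type against 123 and 105 in homozygous apical libraries. Both of its wild-type middle libraries, 122 and 106, lay below both apical ones. Rpl22l1, which the name rule leaves out, followed the family instead, with 102 and 180 in wild-type against 52.0 and 141 in homozygous basal libraries (-0.65 ± 0.46, adjusted p = 0.373). Its level divided by that of Rpl22 ran from 54.6% to 139%.

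Rps10, a protein of the beak of the small subunit, had 129 and 192 in wild-type against 299 and 212 in homozygous middle libraries and 129 and 282 against 120 and 125 in the basal turn. Its 2 wild-type repeats were far apart in both turns. None of its genotype differences was called, and the change between the turns was -1.31 ± 0.52 (adjusted p = 0.105).

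Other copies were compared with the genes they resemble. Rps27l, which is a target of p53 and can stand in for Rps27, ran from 37.7 to 140 in scaled FPKM, or 16.5% to 25.3% of Rps27, and shares 68.3% of aligned bases with it. It had the largest wild-type difference between the basal and apical turns, 1.12 ± 0.40 (adjusted p = 0.184), with 66.3 and 140 in basal and 46.5 and 41.2 in apical libraries. Its genotype difference in the basal turn was -0.92 ± 0.40 (adjusted p = 0.148). Rpl36al, also outside the name rule, amounted to 36.1% to 63.0% of Rpl36a. The paralogs known from muscle, testis and germ cells were near absent, with Rpl3l at 0% to 0.112% of Rpl3, Rpl39l at 0% to 0.293% of Rpl39 and Rpl10l at 0% to 0.0143% of Rpl10.

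The annotation (GENCODE M21, GRCm38) placed the 79 members on 19 chromosomes, with 14 on chromosome 7 and 4 on X, and gave 63 of them the start and end of the deposited table. A single annotated transcript was used per gene, a coding one marked as principal where there was one, and the longest among equals. The protein-coding members had 3 to 10 exons in it (median 5), and 49 of these transcripts were shorter than 1000 bases. 29 of the members held 56 small nucleolar RNA genes between their start and end on the same strand, up to 5 in one gene. Whether each lies in an intron was not checked. Ribosomal protein genes have many processed copies in the genome, and the authors kept uniquely mapped reads. Whether shared sequence bears on the level was not tested. Of a protein-coding member's windows of 100 bases, a median of 31.8% also occurred in a transcript of another gene, 25 members had over 50% of such windows and 5 had none. The highest was Rps27 with 98.4%. The median level was 281 among the 25 members over 50% and 204 among the other 52, and their median basal genotype differences were -0.62 and -0.63.

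Genes that work with the ribosome were grouped in lists. All 7 subunit genes or near copies that the name rule leaves out were lower on average in the homozygous basal turn, with a median log2 value of -0.65, none called. Fau, which encodes a ubiquitin-like protein fused to Rps30, had 295 and 370 in wild-type against 158 and 279 in homozygous basal libraries. Rps3a1 differed by -0.89 ± 0.35 (adjusted p = 0.116), Rack1, a scaffold on the small subunit, by -0.65 ± 0.33 (adjusted p = 0.209) and Rpl7l1 by -0.10 ± 0.17 (adjusted p = 0.722).

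Among 15 translation factors and others whose mRNAs also carry the pyrimidine tract, 11 were lower on average in the homozygous basal turn (median -0.36) and 1 was called. Pabpc1, the poly(A) binding protein, fell (-0.94, adjusted p = 0.0216), while the most abundant, Eef1a1 (-0.57, adjusted p = 0.333), Tpt1 (-0.70, adjusted p = 0.191) and Eef2 (-0.19, adjusted p = 0.585), were not called.

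The factors that build ribosomes did not share the direction of the family. Of 43 ribosome biogenesis genes 31 were higher on average in the homozygous basal turn, with a median of 0.17, and 1 was called. Rrn3, a factor of RNA polymerase I, rose (0.48, adjusted p = 0.0423), while Npm1 (0.05, adjusted p = 0.943), Ncl (0.01, adjusted p = 0.983) and Sbds (-0.15, adjusted p = 0.57) were near 0. Of 78 genes of the mitochondrial ribosome 54 were higher (median 0.13), 3 were called higher and 1, Mrps6, lower (-1.39, adjusted p = 0.00746). Mrpl3 had the largest rise (0.89, adjusted p = 0.0193). Of 17 regulators of translation through mTORC1, 13 were higher (median 0.14), and Mtor rose (0.56, adjusted p = 0.0487). Eif4ebp2, a repressor of cap-dependent translation, fell (-0.86, adjusted p = 0.0205). Of 12 p53 targets tested, 7 were lower (median -0.16) and Trp53inp1 fell (-1.43, adjusted p = 0.00403), while Cdkn1a, the main cell cycle inhibitor under p53, differed by -0.39 (adjusted p = 0.294). In the basal turn 18.1% of all genes were called, and each of these lists was below that share. In the apical and middle turns no gene of these 6 lists was called.

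The make-up of the libraries differed along with the members, and in bulk tissue fewer cells of a type and less RNA per cell cannot be told apart. The second wild-type basal and the first homozygous middle library, the highest for most members, were also the highest in the summed scaled FPKM of 10 osteoblast markers (2938 and 2513 against 58.7 to 1032 in the other 10 libraries) and of 11 macrophage markers (850 and 786 against 94.8 to 294). The 8 red blood cell markers in the table summed to 3180 and 4994 in wild-type against 436 and 524 in homozygous basal libraries, to 490 and 1590 against 3539 and 578 in the middle and to 496 and 232 against 281 and 1167 in the apical turn. The 8 neutrophil markers summed to 2037 and 6318 in these 2 libraries and to 36.1 to 514 in the others, and the 9 proliferation markers to 21.7 and 131 against 2.75 to 12.4. The 7 B lineage markers summed to 119 and 236 in them and to 14.98 to 73.2 elsewhere, with Vpreb1 and Igll1 at 0 in 4 libraries each. No marker of osteoblasts, macrophages, neutrophils or red blood cells was at 0 in any library.

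Neuron and myelin markers went the other way in the basal turn. The 11 neuron markers summed to 14.2 and 916 in wild-type against 3032 and 3598 in homozygous basal libraries, and to 1641 and 1826 against 408 and 55.9 in the middle and 687 and 1004 against 200 and 378 in the apical turn, with Prph at 0 in the first wild-type basal library. The 10 myelin markers summed to 1543 and 5842 against 9729 and 15321 in the basal, to 20698 and 6064 against 873 and 859 in the middle and to 2755 and 2946 against 1731 and 2292 in the apical turn. The 11 hair cell markers summed to 125 and 117 in wild-type against 10.9 and 9.99 in homozygous basal libraries, where Pou4f3 and Slc26a5 were each at 0 in 1 library. They summed to 25.01 and 102 against 224 and 404 in the middle and to 579 and 575 against 339 and 300.5 in the apical turn. The 4 libraries of highest neuron sums, the wild-type middle and homozygous basal ones, were also the 4 of highest Rps4l. Outside these 4 the order did not hold. The first wild-type basal library, lowest in neuron markers (14.2), had Rps4l at 30.9, above the second (916 and 24.9). The 10 striated muscle markers summed to at most 8.54, with 1 to 4 of Myh1, Myh2, Myh4, Ckm and Tnni2 at 0 in each library. The part of these cell types in the levels of the ribosomal protein genes was not tested. With both libraries of highest bone and blood markers left out, a setting chosen after the data were seen, the median genotype difference of the members was 0.24 (apical turn), -0.22 (middle) and -0.33 (basal), no member was called in any of them, and the wild-type basal against apical median was 0.31.

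**Figure D4:**
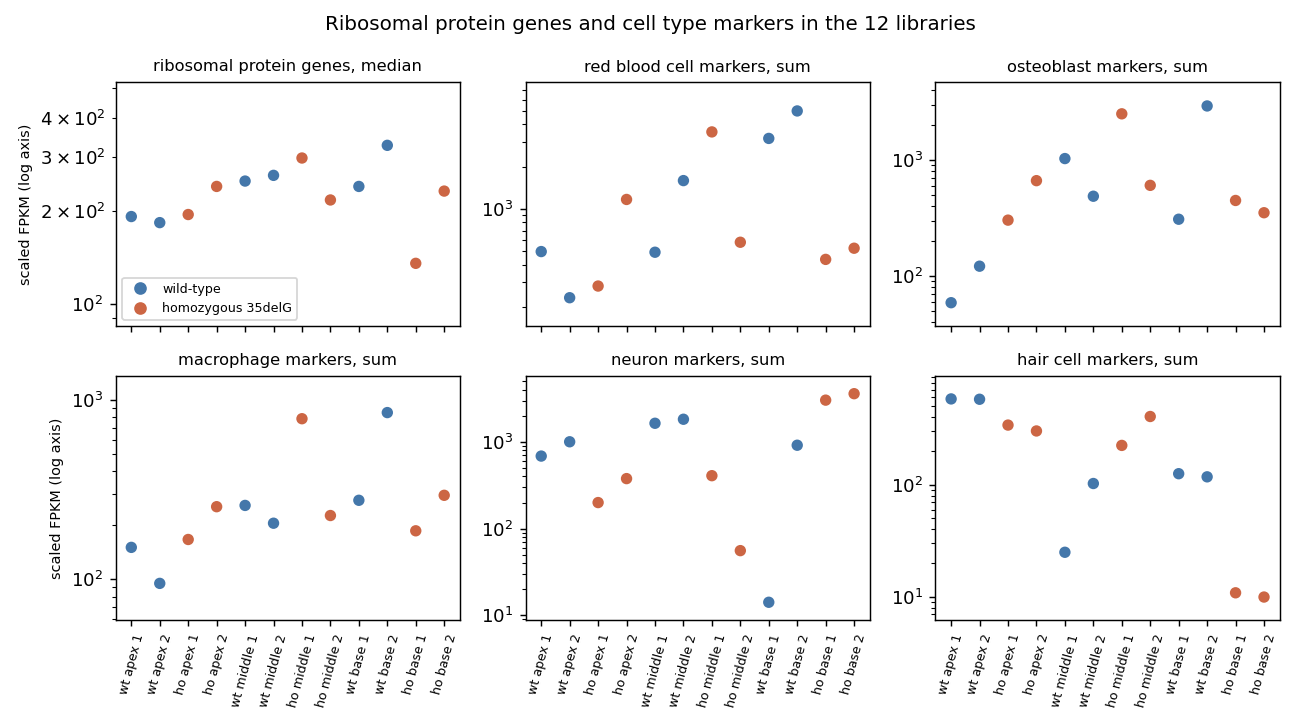
Scaled FPKM (log axes that differ in range) of the members' median and of the summed markers of 5 cell types in the 12 libraries, blue for wild-type and orange for homozygous libraries. The second wild-type basal and the first homozygous middle library are the highest in the members' median (326 and 297), in osteoblast (2938 and 2513) and in macrophage markers (850 and 786), while neuron markers are highest in the homozygous basal libraries (3032 and 3598).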

How the data were processed

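The authors trimmed paired reads of 150 bases with fastp 0.20.0, aligned them to mm10 with STAR 2.7.3a, kept unique alignments, and deposited FPKM computed with StringTie 2.0 as a table of 37432 genes. Their featureCounts and DESeq2 results were not used here. Each library was scaled by its median ratio (factors 0.917 to 1.06) over 11552 genes that reached 1 FPKM throughout. Genes under 1 FPKM in all but 1 library or in all of them were dropped, which left 16215. The limma package 3.58.1 (R 4.3.3) fitted log2(scaled FPKM + 1) with a mean for each of 6 groups, a moderated variance with trend (residual degrees of freedom 6, prior 2.78) and two-sided tests in 9 contrasts, with p-values adjusted by Benjamini-Hochberg over all genes. Calls needed an adjusted p under 0.05 and no minimum fold, and differences of genes near 1 FPKM are understated by the pseudocount of 1. The fit was tested on simulated data. Members, lists and markers were chosen with earlier results of these data known. Genes named singly were the 3 highest and lowest members, the largest called changes, paralogs, stalk proteins, Rpsa, Rps6, subunits outside the name rule, the 3 highest genes and largest called changes of a list, and the 5 genes most like the members' median. For the cell type markers only sums are given. Gene models came from GENCODE M21 (GRCm38), start sites from RefSeq (GRCm38.p6), alignments from Biopython 1.88 and figures from matplotlib 3.10.9 (Python 3.11.15). Alternatives changed the pseudocount, filter, scaling, library weights, replicate block, call thresholds and libraries.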

Additional observations from a re-analysis of the deposited data

Results flagged for a closer look

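For 2 ribosomal protein genes the difference between homozygous and wild-type mice differed between the basal and the middle turn by a test of that change itself (limma, adjusted over 16215 genes, where 22.9% of all genes were called). The log2 difference of Rps4l, the transcribed pseudogene copy of Rps4x, was -0.71 (middle turn) and 0.31 (basal turn), a change of 1.01 (adjusted p = 0.0149), and both repeats of one genotype lay apart from both of the other in each turn. The log2 difference of Rplp2, a protein of the ribosomal stalk, was 0.62 (middle turn) and -0.50 (basal turn), a change of -1.12 (adjusted p = 0.0384). In the same contrast 10 of 10 myelin and 8 of 11 neuron markers were called higher and 9 of 11 hair cell markers were called lower, and their part in these changes was not tested.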

How the results depend on the processing

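The number of members called was 0 in every setting tried for the genotypes in the apical turn or averaged over the turns, and for the wild-type basal turn against the apical or the middle turn. In the middle turn the count of 1 became 0 with a pseudocount of 0.1, without a filter, with FPKM as deposited, with equal sums, with quantile normalization, with only the libraries compared, with the replicate block, at the study's thresholds (adjusted p under 0.01 and fold over 2), without both libraries of highest bone and blood markers and with protein-coding members only. In the basal turn the count of 1 became 0 without a filter, with only the libraries compared, with library weights, with the replicate block, at the study's thresholds and without both libraries, and 9 with quantile normalization. For the basal minus the middle turn the count of 2 became 4 with FPKM as deposited, 10 with quantile normalization, 1 without a filter, with only the libraries compared, with library weights, with the replicate block or with protein-coding members only, and 0 at the study's thresholds or without both libraries. For the wild-type middle against the apical turn the count of 0 became 3 with only the libraries compared and 2 with library weights. Leaving out 1 library at a time gave 0 to 1 calls in the middle, 0 to 7 in the basal turn, 1 to 5 for basal minus middle and 0 to 5 for basal minus apical, where 5 came without the second homozygous basal and 1 without the first wild-type basal library. The cause of these changes was not tested. At the study's thresholds no member was called in any of the 9 contrasts.

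The median of the members in the basal turn stayed below 0, from -0.99 to -0.22, and in the apical turn above 0, from 0.04 to 0.39. It ran from -0.22 to 0.27 in the middle turn and from -0.23 to 0.03 over the mean of the turns. Without scaling the median of all genes moved from 0.04 to 0.17 in the middle turn, and that of the members from 0.01 to 0.18. With equal sums the median of all genes moved from -0.03 to -0.14 in the apical turn, and that of the members from 0.24 to 0.10. The labels do not say that a repeat number marks shared mice or a batch, and the correlation of same-numbered deviations over 15 pairs of groups ran from -0.43 to 0.45, so the replicate block pairs libraries by number only. With mitochondrial transcripts left out of the sum, the members' share was 5.26% and 5.64% in the wild-type and homozygous apical, 6.38% and 6.57% in the middle and 7.07% and 4.77% in the basal turn. Depth is unknown, and with 2 libraries a group the standard error of a member (median 0.33) limits what can be called.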
